A study of Mus musculus with 24 samples.

Results

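Expression of 9 genes known as markers of alternative macrophage activation was followed in mouse lung 24 days after irradiation. The genes are Arg1, Retnla, Mrc1, Clec10a, Mgl2, Cd163, Il4ra, Ccl17 and Chi3l3. They were found by the gene names of probes that are not controls, with older symbols accepted; Clec10a was found as Mgl1, and Chi3l3 is now called Chil3. All 9 were on the array and all 9 entered the tests, out of 27401 genes on the array and 20453 tested.

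RNA from lung was hybridised to 24 single-colour Agilent arrays in 12 groups of 2 biological replicates. Mice were untreated or received Ly, Imatinib or Su alone, or the pairs Ly+Imatinib and Ly+Su, and each of these 6 arms was present without and with irradiation. Irradiated lung without drug is called Irradiation, and the irradiated drug groups are called Irradiation+Ly and so on. The title of the series names inhibition of TGFβ and PDGF signalling in lung fibrosis after radiation as the question. Imatinib inhibits the ABL, KIT and PDGF receptor kinases; Ly and Su are given in this short form. Strain, age, radiation dose and drug doses are not given in the labels. The labels do not say which animals the replicates came from, so that p-values measure the spread between these samples.

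Macrophages exposed to the type 2 cytokines IL-4 and IL-13 enter a state called alternative activation. Both cytokines signal through a receptor chain encoded by Il4ra, which leads to phosphorylation of the transcription factor STAT6 and to transcription of genes such as Arg1, Retnla and Chi3l3. In lung these genes are known from allergic inflammation, worm infection and fibrosis, and several of them are also expressed by resident macrophages or by airway epithelium.

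Promoters of 7 of the 9 genes were matched in RefSeq sequences of the GRCm38.p6 build, each covering 250 bases before to 50 bases after a start site. They were searched on both strands for TTCNNNNGAA, the spacing that STAT6 is known to prefer, and for TTCNNNGAA, the spacing of other STAT proteins. Both motifs read the same on either strand. Among 32851 promoters of 300 bases, 6.95% hold the first motif and 8.3% the second. Retnla and Ccl17 hold the first, Ccl17 and Chi3l3 hold the second, and Cd163, Il4ra, Mgl2 and Mrc1 hold neither in this window. The 3 promoters with a match are shown, together with that of Chi3l4, the near relative of Chi3l3 whose values are given with it; capitals mark the motifs.
Retnla: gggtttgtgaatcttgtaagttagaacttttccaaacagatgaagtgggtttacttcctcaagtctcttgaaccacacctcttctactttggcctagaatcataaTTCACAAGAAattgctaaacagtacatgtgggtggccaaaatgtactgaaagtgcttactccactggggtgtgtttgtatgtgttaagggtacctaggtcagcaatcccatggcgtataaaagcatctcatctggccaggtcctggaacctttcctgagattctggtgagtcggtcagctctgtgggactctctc
Ccl17: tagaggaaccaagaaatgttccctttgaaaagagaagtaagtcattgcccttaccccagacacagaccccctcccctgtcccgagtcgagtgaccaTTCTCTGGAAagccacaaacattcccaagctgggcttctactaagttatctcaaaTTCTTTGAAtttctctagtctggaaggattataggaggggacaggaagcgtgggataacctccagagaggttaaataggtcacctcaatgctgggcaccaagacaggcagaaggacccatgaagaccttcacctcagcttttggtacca
Chi3l3: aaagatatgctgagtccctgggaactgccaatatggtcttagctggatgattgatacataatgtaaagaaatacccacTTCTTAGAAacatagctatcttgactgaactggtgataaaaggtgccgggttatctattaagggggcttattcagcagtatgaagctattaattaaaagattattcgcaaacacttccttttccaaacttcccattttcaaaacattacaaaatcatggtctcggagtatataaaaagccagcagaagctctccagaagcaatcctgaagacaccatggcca
Chi3l4: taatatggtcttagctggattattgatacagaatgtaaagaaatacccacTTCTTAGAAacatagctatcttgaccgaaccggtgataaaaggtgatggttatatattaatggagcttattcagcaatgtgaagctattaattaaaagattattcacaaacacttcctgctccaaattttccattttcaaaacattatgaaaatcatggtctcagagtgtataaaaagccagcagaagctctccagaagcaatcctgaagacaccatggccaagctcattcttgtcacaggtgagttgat
The start site used for Ccl17 lies 1073 bases inside the gene as annotated, that of Mgl2 232 bases and that of Cd163 15 bases; the others are the first base of their gene. The Retnla promoter lies at chr16:48842359-48842658 and that of Ccl17 at chr8:94810203-94810502, both on the plus strand. The Chi3l3 promoter lies at chr3:106167515-106167814 and that of Chi3l4 at chr3:106219430-106219729, both on the minus strand. The TTCACAAGAA of Retnla begins 145 bases before its start site and the TTCTCTGGAA of Ccl17 begins 154 bases before the site used, within the annotated gene; a further match in Ccl17, TTCTTTGAA, begins 99 bases before that site. The TTCTTAGAA found in both Chi3l3 and Chi3l4 begins 172 and 200 bases before their start sites. A match describes letters and is no measured binding.

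Levels are log2 intensity minus the log2 of the 75th percentile of the array; they compare arrays, not genes, since each probe has its own brightness. Probes of all 9 genes were well above background on 24 of 24 arrays and none was saturated. Of 10 airway and alveolar epithelium markers, 10 were above background on every array, as lung tissue should show. The array Irradiation 1 stood apart: its 75th percentile of intensity was 2263, against 629 to 1600 on the others. The robust SD of the difference between replicates was 0.642 (log2) for the Irradiation pair and 0.134 (Su) to 0.366 (Ly) in the other groups, while the tests use 1 spread shared by all groups. Results resting on Irradiation 1 are therefore also given without it. The Su pair differed by more than 2 spots of a probe on 1 array did (0.0908), and its arrays count as 2 samples. No slide held both irradiated and unirradiated arrays, so that irradiation and slide cannot be told apart. Untreated shared a slide with Ly, and Irradiation with Irradiation+Ly. Imatinib shared a slide with Su, and Ly+Imatinib with Ly+Su, as did their irradiated counterparts. Comparisons of Imatinib, Su or a combination with untreated or Irradiation therefore lie between slides, as do the pooled Imatinib and Su differences. The combinations also lie on other slides than their single agents. Drug and slide cannot be told apart in any of these. The pooled Ly differences lie within a slide for Ly itself and between slides for the combinations. In that latter part, Ly and slide cannot be told apart either.

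**Figure D1:**
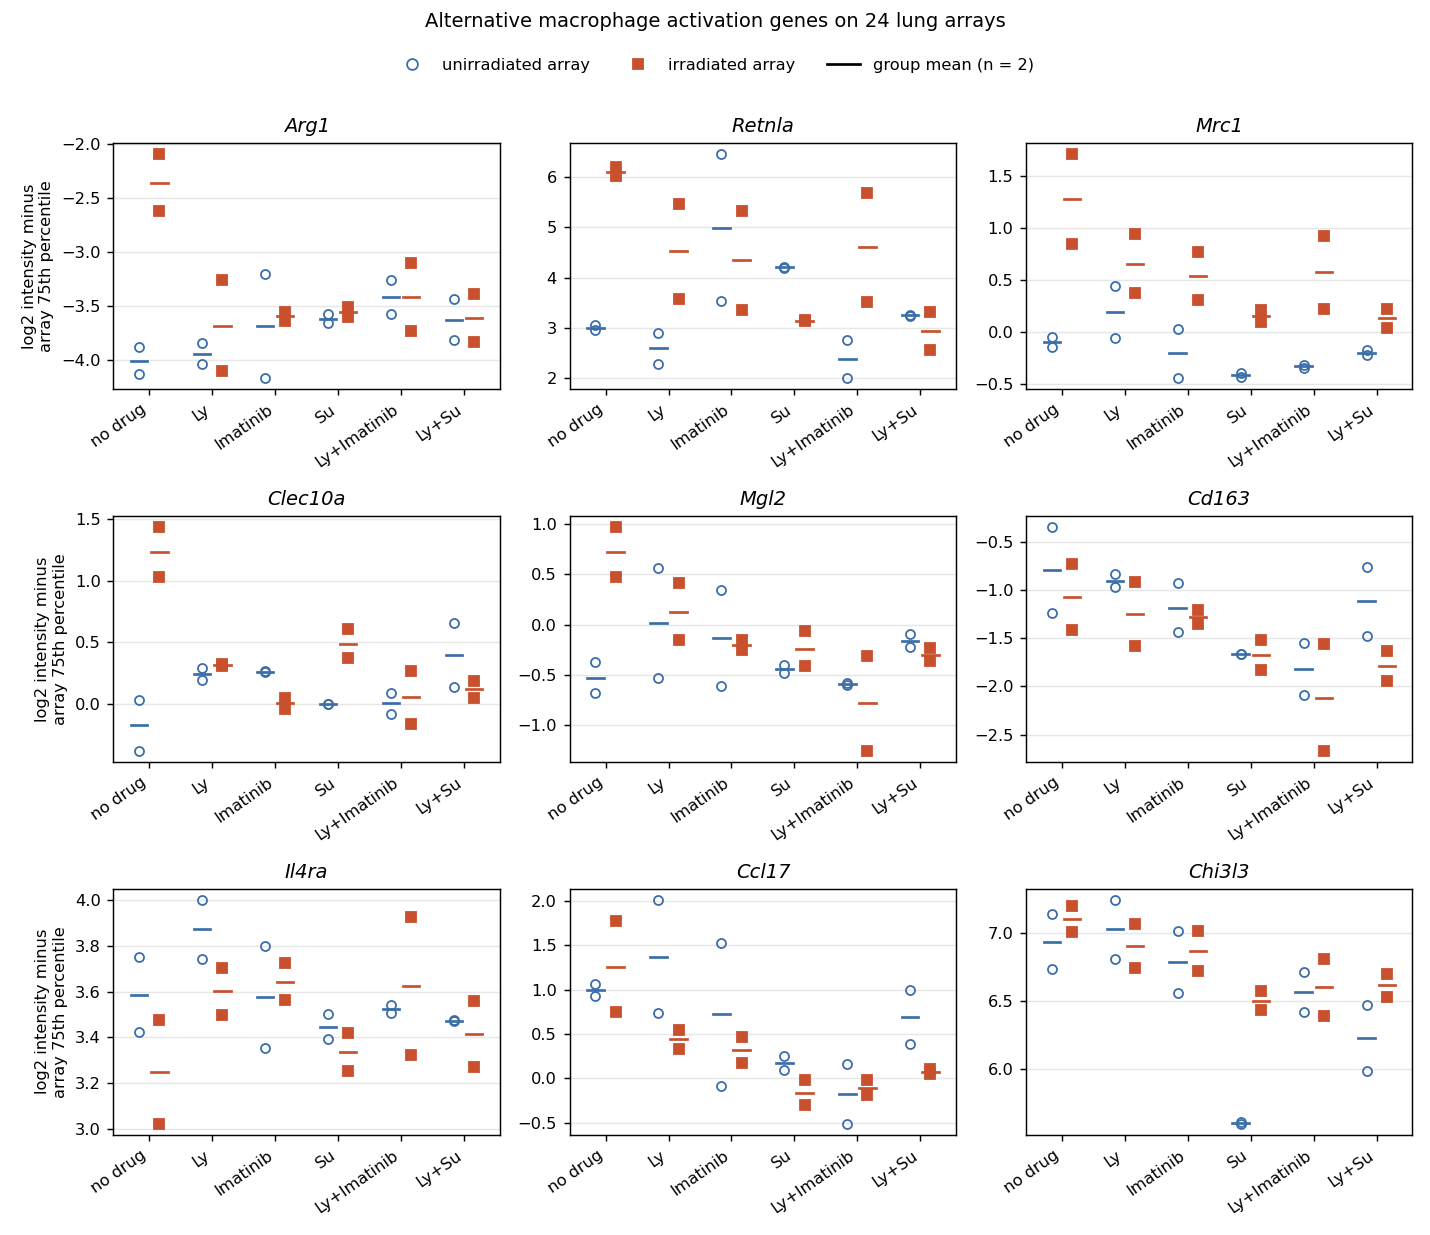
Level of each gene (log2 intensity minus the array's 75th percentile, vertical axis with its own range for each gene) on 24 arrays by drug arm, with unirradiated and irradiated arrays as separate points and lines at the means of 2 arrays. Both Irradiation arrays lie above all 22 others for Arg1 and Clec10a, and both Su arrays lie lowest for Chi3l3.

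Irradiation without drug was compared with untreated lung. Arg1, Retnla, Mrc1, Clec10a and Mgl2 rose, by 2.38-fold (Mgl2) to 8.56-fold (Retnla), while Cd163, Il4ra, Ccl17 and Chi3l3 did not pass the test; the rise of Arg1 was not seen with another background correction. Thus 5 of 9 were called higher and 0 lower in limma's test with Benjamini-Hochberg adjustment over 20453 genes; of all genes tested, 14.1% were called, 7.28% as higher. The median difference of the 9 genes was 1.25 on the log2 scale, beside 0.00 over all genes tested. Without Irradiation 1, 1 of the 9 genes (Clec10a) passed, where 0.797% of all genes did; without Irradiation 2, 5 passed, where 42.2% of all genes did. In these bulk samples, a change in the number of cells of a type and a change in RNA per cell cannot be told apart.

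Arg1 encodes the arginase that turns arginine into ornithine and urea. Its level was -3.88 and -4.13 on the untreated arrays and -2.09 and -2.62 on the Irradiation arrays. The other 22 arrays ranged from -4.16 to -3.10, so that both Irradiation arrays were the highest of the 24. The difference was 1.65 ± 0.33 (SE; adjusted p = 0.0101, limma), or 3.14-fold. With normexp, another background correction, it turned to -0.26 (adjusted p = 0.712), so that the direction of Arg1 depends on this choice. The difference was 1.39 without Irradiation 1 (adjusted p = 0.117) and 1.52 without untreated 2 (adjusted p = 0.0633).

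Retnla encodes a small secreted protein, RELMα, made by alternatively activated macrophages and airway epithelium. Its level was 2.96 and 3.06 on the untreated arrays and 6.21 and 6.01 on the Irradiation arrays. Both pairs were tight, but Imatinib 1 reached 6.46, above both Irradiation arrays. The difference was 3.10 ± 0.89 (adjusted p = 0.0362, limma). It lay between 3.003 and 3.19 when an array was left out, with adjusted p of 0.222 without Irradiation 1, 0.107 without untreated 1 and 0.137 without untreated 2. A further Retnla probe gave 3.25 (adjusted p = 0.0351).

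Mrc1 encodes the mannose receptor CD206, and Clec10a and Mgl2 encode lectins for galactose-type sugars. Mrc1 stood at -0.05 and -0.14 on the untreated arrays and at 1.71 and 0.84 on the Irradiation arrays. Its difference of 1.37 ± 0.29 (adjusted p = 0.0134) was 0.94 without Irradiation 1 (adjusted p = 0.168) and 1.32 without untreated 2 (adjusted p = 0.0724). The Mrc1 arrays of the 2 groups did not overlap, and Irradiation 1 lay far above Irradiation 2. Clec10a stood at 0.03 and -0.39 on the untreated arrays and at 1.44 and 1.03 on the Irradiation arrays. No array outside the Irradiation group exceeded 0.66 for Clec10a. Its difference of 1.41 ± 0.20 (adjusted p = 0.00263) ranged from 1.20 to 1.62 and passed with each of the 4 arrays left out. Mgl2 stood at -0.37 and -0.68 in untreated lung and at 0.97 and 0.48 after Irradiation. These arrays did not overlap, although Ly 2 reached 0.57. The Mgl2 difference was 1.25 ± 0.38 (adjusted p = 0.0428), and 1.004 without Irradiation 1 (adjusted p = 0.322), 1.41 without untreated 1 (0.0875) and 1.10 without untreated 2 (0.204); with normexp it was 1.06 (adjusted p = 0.0762). Arg1 and Clec10a were the genes of the 9 with both Irradiation arrays above the other 22; 3.65% of all genes tested had that pattern.

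The remaining 4 genes did not pass. Cd163, a scavenger receptor for haemoglobin, differed by -0.28 (95% interval -1.13 to 0.57). Il4ra, the receptor chain, differed by -0.34 (-0.80 to 0.12). Ccl17, a chemokine that attracts type 2 T cells, differed by 0.27 (-0.77 to 1.30), with 1.78 and 0.74 on the Irradiation arrays beside 1.06 and 0.93 in untreated lung. Chi3l3, a secreted chitinase-like protein also called Ym1, differed by 0.17 (-0.33 to 0.66). The 2 groups overlapped for each of these 4 genes. With 2 arrays per group, overlap or its absence describes these arrays and is no test. Its share over all genes is not given.

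**Figure D2:**
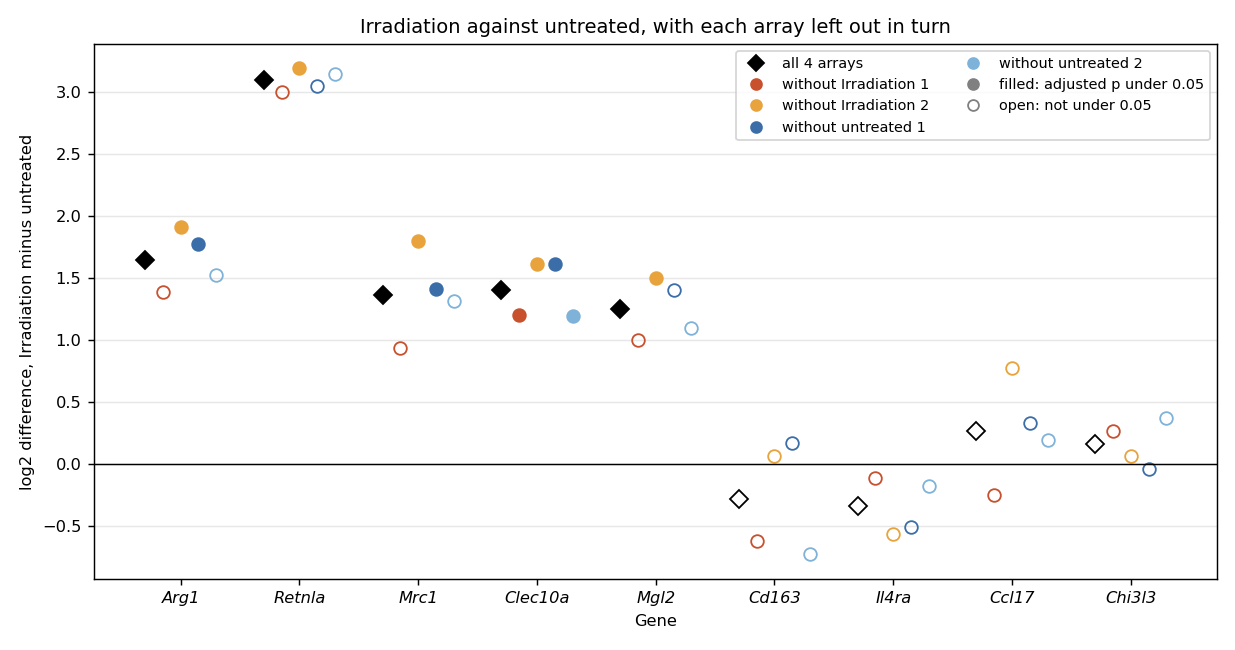
Difference in log2 level between Irradiation and untreated for each gene, with all 4 arrays and without each array in turn; filled symbols have an adjusted p under 0.05. Clec10a is filled throughout (1.20 to 1.62), whereas Retnla lies between 3.003 and 3.19 and is open in 3 of 4 cases.

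Other genes of the pathway were taken from lists. Among 18 other genes of alternative activation, 6 were called higher and 0 lower in Irradiation against untreated, with a median difference of 0.70. They included Igf1, a growth factor (3.18 ± 0.54, adjusted p = 0.00616), and Cd200r1, an inhibitory receptor of myeloid cells (3.20 ± 0.57, adjusted p = 0.00695; above background on 1 of 2 untreated arrays). The scavenger receptor Msr1 (2.54 ± 0.65, adjusted p = 0.0240) and Clec7a, the β-glucan receptor (1.61 ± 0.36, adjusted p = 0.0147), rose too. Chi3l4 differed by 1.32 ± 0.54 and was not called (adjusted p = 0.108). Whether the probes of Chi3l3 and Chi3l4 tell these near copies apart was not tested. Ccl22, a chemokine for the same receptor as Ccl17, did not pass the filter on background.

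Among 17 genes listed under IL-4 and IL-13 signalling, 1 was called higher and 2 lower. The list also holds Il33, Il1rl1 and Tslp. Il2rg, Jak1, Jak3 and Tyk2 of that list were not called. Il1rl1, the IL-33 receptor, rose by 1.97 ± 0.56 (adjusted p = 0.0335). The transcription factor Klf4 (-0.67 ± 0.19, adjusted p = 0.0317) and Tslp, an epithelial cytokine (-0.71 ± 0.15, adjusted p = 0.0142), fell. Stat6 differed by -0.37 ± 0.12 (adjusted p = 0.0593) and Il13ra1, the partner of Il4ra in the IL-13 receptor, by 0.24 ± 0.23 (adjusted p = 0.492). Among 10 genes of arginine metabolism, 1 was called higher, Odc1 of polyamine synthesis (0.80 ± 0.20, adjusted p = 0.0210), and 0 lower. Arg2, the other arginase, differed by 0.75 ± 0.42 (adjusted p = 0.224), and Nos2, which uses arginine in classically activated macrophages, did not pass the filter on background. Among 14 genes of classical activation, 6 were called higher and 0 lower, among them the chemokines Cxcl10 (2.61 ± 0.50, adjusted p = 0.00855) and Cxcl9 (2.87 ± 0.69, adjusted p = 0.0194). Il6 and Il12b were also called higher and were not well above background on either untreated array.

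Part of the general markers of macrophages and monocytes moved in the same comparison as the 5 genes. Of 16 such markers, 9 were called higher and 0 lower, with a median difference of 1.30 beside the 1.25 of the 9 genes. The complement genes C1qc (1.78 ± 0.32, adjusted p = 0.00762) and C1qa (1.68 ± 0.38, 0.0159), the scavenger receptor Marco (1.78 ± 0.44, 0.0217) and the lysosomal Cd68 (1.60 ± 0.31, 0.00850) were among them. Not called were Lyz2 (-0.60), Csf1r (-0.19), Cx3cr1 (0.18), Mertk (0.22), Siglecf (0.29), Itgam (0.33) and Ccr2 (0.72). The mean level of the list was 0.92 and 1.02 on the untreated arrays and 2 and 1.76 on the Irradiation arrays. Of the 16 markers, 16 were above background on 24 arrays. Their part in the result was not tested. Dendritic cell markers had 2 of 10 called higher, eosinophil markers 0 of 6, neutrophil markers 0 of 8 and adipose markers 0 of 5, with 0 called lower in each. Type 2 lymphocyte markers had 1 higher and 1 lower of 7. Lymphatic endothelium had 0 higher and 3 lower of 6, led by Ccl21b (-1.34) and Lyve1 (-1.27). Its markers Prox1 (0.32), Pdpn (0.15) and Reln (-0.70) were not called. Airway and alveolar epithelium had 0 higher and 1 lower of 10, Scgb3a2 (-1.001 ± 0.29).

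Averaged over the 6 drug arms, 12 irradiated arrays were set against 12 unirradiated ones. Of the 9 genes, Mrc1 and Clec10a were called higher and 0 lower, where 32.9% of all genes were called and 16.1% as higher. Mrc1 ranged from -0.44 to 0.44 with a median of -0.20 on the unirradiated arrays and from 0.04 to 1.71 with a median of 0.34 on the irradiated ones. The ranges overlapped over part of their length. Its averaged difference was 0.73 ± 0.12 (adjusted p = 0.000557, limma), or 1.66-fold, and it passed without any of the 24 arrays in turn (0.66 to 0.80). By arm, the Mrc1 difference was 1.37 without drug, 0.46 with Ly, 0.74 with Imatinib, 0.57 with Su, 0.90 with Ly+Imatinib and 0.33 with Ly+Su. Of these 6 positive values the first was called.

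Clec10a had an averaged difference of 0.25 ± 0.08 (adjusted p = 0.0280), which lost its call in 7 of 24 cases when an array was left out (highest adjusted p = 0.0593, without Irradiation+Su 2); with normexp the adjusted p was 0.0924. Retnla (0.87 ± 0.36, adjusted p = 0.0809), Chi3l3 (0.24 ± 0.09, 0.0622) and Arg1 (0.35 ± 0.13, 0.0607) were not called. Neither were Mgl2 (0.19), Cd163 (-0.28), Il4ra (-0.10) and Ccl17 (-0.33). Among the lists, 6 of 18 other alternative activation genes were higher and 1 lower, and 5 of 14 classical genes were higher and 1 lower. Those 5 include Il6 and Il12b, which were above background on 7 and 8 of 24 arrays. Chi3l4 rose by 0.71 ± 0.22 (adjusted p = 0.0241). Of 17 genes of IL-4 and IL-13 signalling, 3 were higher and 3 lower. The transcription factor Irf4, which acts in alternative activation, rose by 0.69 ± 0.13 (adjusted p = 0.00112), as did Il33 (0.39) and Il2rg (0.24), while Tslp (-0.49), Kdm6b (-0.47) and Stat6 (-0.18 ± 0.05, adjusted p = 0.0154) fell, and Il13ra1 (0.00) and Arg2 (0.23 ± 0.17) were not called. Of the macrophage and monocyte markers, 9 of 16 were higher and 0 lower. Their mean level was 0.75 to 1.51 on the unirradiated and 1.17 to 2 on the irradiated arrays. Dendritic cell markers had 6 of 10 higher (Flt3, Xcr1, Clec9a, Batf3, Fscn1 and Itgae) and 1 lower (Zbtb46), and epithelium had 0 higher and 3 of 10 lower (Scgb3a2, Aqp5 and Epcam). Eosinophils (1 of 6, Siglecf) and type 2 lymphocytes (1 of 7, Ptgdr2) had markers called higher and 0 lower. Siglecf is also counted among the macrophage and monocyte markers. Neutrophils (1 of 8), lymphatic endothelium (1 of 6) and adipose tissue (1 of 5) had markers called lower and 0 higher. The part of these cell types in the result was not tested.

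Within the drug arms, 1 gene in 1 arm was called. That was Chi3l3 in Irradiation+Su against Su, an arm where 10.8% of all genes were called and 4.69% as higher. Chi3l3 stood at 5.61 and 5.59 on the Su arrays and at 6.43 and 6.57 on the Irradiation+Su arrays. The Su arrays were the lowest 2 of all 24 for this gene. The difference of 0.90 ± 0.23 (adjusted p = 0.0263) kept its size (0.83 to 0.97) but lost its call in 4 of 4 cases when an array was left out (highest adjusted p = 0.182, without Irradiation+Su 2); with normexp it was 0.76 (adjusted p = 0.208). In the Ly, Imatinib, Ly+Imatinib and Ly+Su arms 0 of 9 genes were called by limma, where 0.0342%, 2.84%, 3.55% and 3.38% of all genes were. Of the 9, 1, 1, 2 and 0 had an unadjusted p under 0.05. With normexp, 3 calls fell within the drug arms, where 9.22% of all tests passed, beside 4.12% as reported. Chi3l3 with Su was not among those 3, so that the called genes depend on this choice.

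Retnla varied most from arm to arm. Its irradiation difference was 1.92 with Ly and 2.23 with Ly+Imatinib, and -0.65 with Imatinib, -1.06 with Su and -0.31 with Ly+Su. None of these 5 was called (lowest adjusted p = 0.176). The replicates of several groups lay far apart. Imatinib arrays stood at 6.46 and 3.53, Irradiation+Ly at 3.58 and 5.47, Irradiation+Imatinib at 3.36 and 5.33 and Irradiation+Ly+Imatinib at 5.69 and 3.53. The Su and Irradiation+Su pairs were tight by contrast, at 4.19 and 4.22 and at 3.14 and 3.16.

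Whether the irradiation difference depended on the drug arm was tested with limma's F test of the interaction. Clec10a was called among the 9 genes (F = 10.53, adjusted p = 0.0336), where 1.07% of all genes were called. Its 6 differences were 1.41 without drug, 0.07 with Ly, -0.26 with Imatinib, 0.49 with Su, 0.05 with Ly+Imatinib and -0.28 with Ly+Su. The call was lost in 16 of 24 cases when an array was left out; the highest adjusted p was 0.116 (without untreated 2), and it was 0.0892 without Irradiation 1 and 0.120 with normexp. Arg1 (adjusted p = 0.196) and Retnla (0.199) came next, and the other 6 genes had adjusted p of 0.326 or more.

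**Figure D3:**
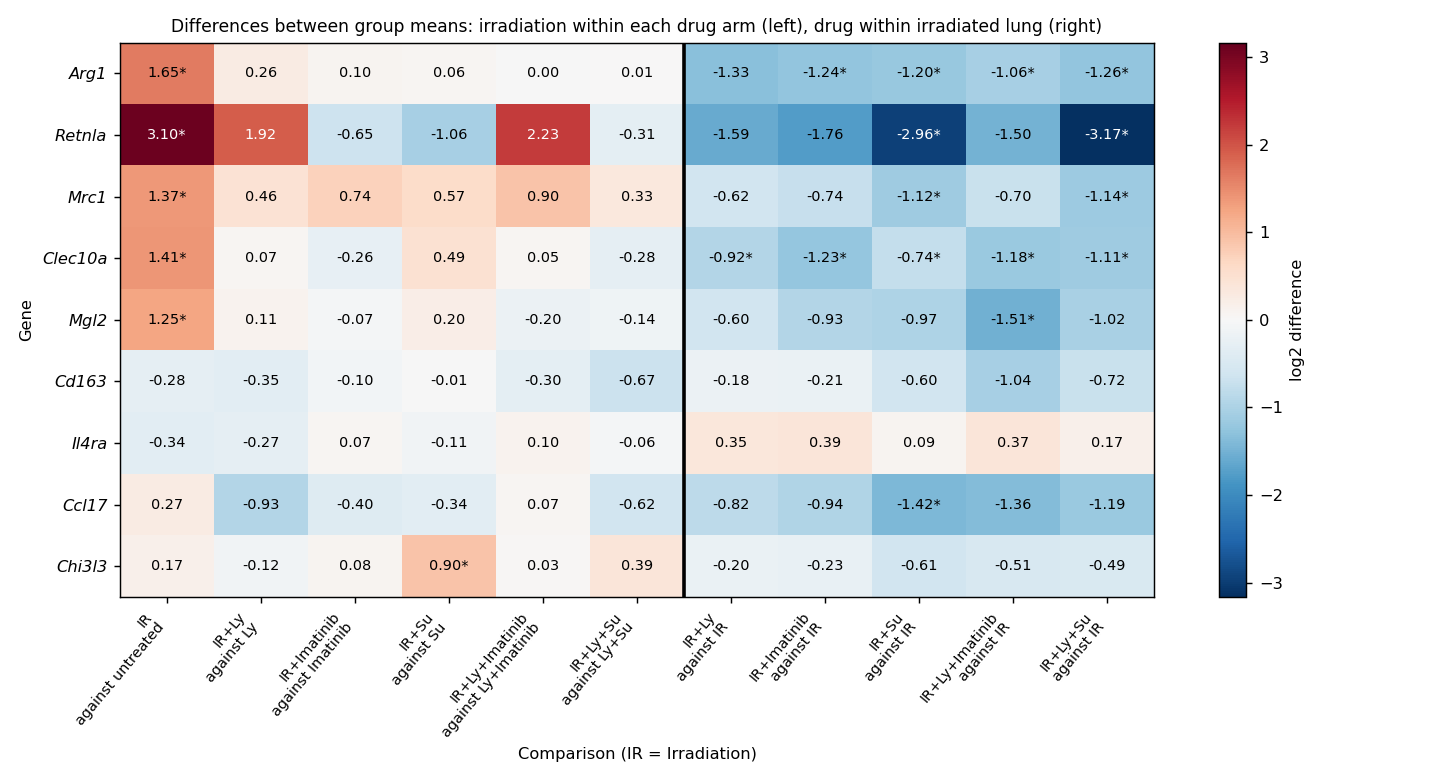
Differences in log2 level of the 9 genes, left of the line for irradiation within each drug arm and right of it for each irradiated drug group against Irradiation (IR); colour runs from blue (lower) to red (higher), and a star marks an adjusted p under 0.05. Stars fall on 5 genes without drug, on Chi3l3 in the Su arm, and on 1 to 5 genes in each column at right, all negative.

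The irradiated drug groups were then set against Irradiation alone; these 5 comparisons share the same 2 Irradiation arrays with each other and with the comparison with untreated lung. Clec10a was lower in all 5, Arg1 in 4, Retnla and Mrc1 in both comparisons with Su, and Mgl2 and Ccl17 in 1 each. None of the 9 genes was called higher. With Ly, 1 gene was lower, where 0.875% of all genes were called and 0.288% as lower. With Imatinib 2 were lower (13.9% and 5.99%), with Su 5 (26.4% and 15.7%), with Ly+Imatinib 3 (19.3% and 8.31%) and with Ly+Su 4 (28.4% and 12.7%). Without Irradiation 1 these counts were 0, 1, 0, 1 and 1, where 0.161 to 9.37% of all genes were called. Without Irradiation 2 they were 3, 3, 6, 6 and 6, where 38 to 48.8% of all genes were called. With normexp, 3 of the 15 calls passed (Clec10a with Su and Ly+Su, Mrc1 with Su), where 1.71% of all tests did, beside 17.8% as reported.

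Clec10a stood at 1.44 and 1.03 on the Irradiation arrays and from -0.16 to 0.61 on the 10 irradiated drug arrays, with no overlap. Its differences from Irradiation were -0.92 with Ly (adjusted p = 0.0466), -1.23 with Imatinib (0.00409), -0.74 with Su (0.0153), -1.18 with Ly+Imatinib (0.00291) and -1.11 with Ly+Su (0.00220), each with an SE of 0.20. Those with Imatinib, Ly+Imatinib and Ly+Su passed with each array left out in turn; with normexp the adjusted p was 0.0663 with Imatinib and 0.0593 with Ly+Imatinib. Without Irradiation 1 the differences were -0.71 with Ly (adjusted p = 0.317) and -0.54 with Su (0.152). The call with Ly was also lost without Irradiation+Ly 1 (0.116) or Irradiation+Ly 2 (0.150), and that with Su without Irradiation+Su 1 (0.111). The comparison with Ly lies within 1 slide.

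Arg1 ranged from -4.10 to -3.10 on the 10 irradiated drug arrays, below both Irradiation arrays. Its differences were -1.24 with Imatinib (adjusted p = 0.0297), -1.20 with Su (0.0178), -1.06 with Ly+Imatinib (0.0378) and -1.26 with Ly+Su (0.0142), and -1.33 with Ly (0.0684, not called). None of the 4 called differences passed without Irradiation 1, where they were -0.97 (adjusted p = 0.247), -0.94 (0.159), -0.80 (0.241) and -0.99 (0.132). The calls of Arg1 with Imatinib and with Su were also lost without either drug array, that with Ly+Imatinib without Irradiation+Ly+Imatinib 1 (0.226) and that with Ly+Su without Irradiation+Ly+Su 1 (0.119).

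Retnla stood at 3.14 and 3.16 with Irradiation+Su and at 2.57 and 3.32 with Irradiation+Ly+Su, beside 2.96 and 3.06 in untreated lung. It differed from Irradiation by -2.96 ± 0.89 with Su (adjusted p = 0.0271) and -3.17 ± 0.89 with Ly+Su (0.0201). Without Irradiation 1 the sizes were -2.87 (adjusted p = 0.138) and -3.07 (0.107), and each call was also lost without either drug array. Mrc1, at 1.71 and 0.84 with Irradiation, stood at 0.10 and 0.21 with Irradiation+Su and 0.22 and 0.04 with Irradiation+Ly+Su, with no overlap. It differed by -1.12 ± 0.29 with Su (adjusted p = 0.0154) and -1.14 ± 0.29 with Ly+Su (0.0136). Without Irradiation 1 these were -0.69 (0.189) and -0.71 (0.167), and again each call was lost without either drug array.

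Mgl2 was called with Ly+Imatinib (-1.51 ± 0.38, adjusted p = 0.0169), with -1.26 (0.121) without Irradiation 1 and -1.04 (0.137) without Irradiation+Ly+Imatinib 1. Ccl17 was called with Su (-1.42 ± 0.48, adjusted p = 0.0436), with -0.91 (0.351) without Irradiation 1, and its call was also lost without either Irradiation+Su array. The Ccl17 level was 1.78 and 0.74 with Irradiation and -0.30 and -0.02 with Irradiation+Su. Cd163, Il4ra and Chi3l3 were called in none of these comparisons, with differences of -1.04 to -0.18, 0.09 to 0.39 and -0.61 to -0.20.

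The irradiated combinations were compared with their single agents in 4 comparisons. None of the 9 genes passed limma's test in any of them (lowest adjusted p = 0.221), where 3.42% (Ly+Imatinib against Ly), 1.45% (Ly+Imatinib against Imatinib), 3.34% (Ly+Su against Ly) and 3.3% (Ly+Su against Su) of all genes were called. At an unadjusted p under 0.05, 2 differences were counted, Mgl2 and Cd163 in Irradiation+Ly+Imatinib against Irradiation+Ly (-0.92 and -0.86). A difference that misses the threshold does not show that a combination and its single agents act alike: the differences ran from -1.58 to 0.27.

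Drugs without irradiation were compared with untreated lung, sharing the 2 untreated arrays. Chi3l3 fell with Su and was the 1 gene of the 9 called in these 5 comparisons; with Su, 2.69% of all genes were called, 1.84% as lower. Chi3l3 stood at 6.73 and 7.14 in untreated lung and at 5.61 and 5.59 with Su, with no overlap. The difference was -1.34 ± 0.23 (adjusted p = 0.00915, limma), 2.52-fold lower. It lost its call without untreated 2 (-1.13, adjusted p = 0.0699), Su 1 (-1.34, 0.0744) or Su 2 (-1.33, 0.0742), and with normexp (-1.05, 0.121). With Ly, Imatinib, Ly+Imatinib and Ly+Su, 0 of 9 genes were called by limma, where 0.00489%, 0.357%, 2.58% and 0.728% of all genes were; 0, 2, 2 and 2 of the 9 had an unadjusted p under 0.05. Retnla differed by 1.98 with Imatinib (adjusted p = 0.455, limma) and by 1.20 with Su (0.533), and neither difference was called.

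Each drug was also taken over the arms that carry it, which gives 6 against 6 arrays for Ly and 4 against 4 for Imatinib and Su. In unirradiated lung, Chi3l3 was called lower with Su (-1.07 ± 0.16, adjusted p = 0.00335), 2.10-fold. Of the 9 genes it was the 1 called, where 5.58% of all genes were called and 2.65% as lower. The Su arrays stood at 5.61 and 5.59 and the Ly+Su arrays at 6.47 and 5.99, against 6.73 and 7.14 for untreated and 6.81 and 7.25 for Ly, with no overlap. The call held without any of the 8 arrays in turn (highest adjusted p = 0.0178) and was lost with normexp (-0.92, adjusted p = 0.103), where 0.0587% of all tests of pooled drugs in unirradiated lung passed. Chi3l4 differed by -1.46 ± 0.39 (adjusted p = 0.0424). Pooled Ly and pooled Imatinib gave 0 of 9 calls by limma in unirradiated lung, where 4.9% and 0.792% of all genes were called; 1 and 2 of the 9 had an unadjusted p under 0.05.

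In irradiated lung, Retnla, Mrc1 and Clec10a were called lower with Su over both arms, 3 of 9 genes, where 25.2% of all genes were called and 13.2% as lower. Retnla stood at 3.14 and 3.16 and 2.57 and 3.32 with Su, and at 6.21 and 6.01 (Irradiation) and 3.58 and 5.47 (Irradiation+Ly) without it. The arrays did not overlap, and the difference was -2.27 ± 0.63 (adjusted p = 0.0197), 4.82-fold lower. Its call was lost in 5 of 8 cases when an array was left out, with 0.0539 without Irradiation 1 and at most 0.0756 (without Irradiation+Ly 2); the others were Irradiation+Su 1, Irradiation+Su 2 and Irradiation+Ly+Su 1. Mrc1 differed by -0.82 ± 0.21 (adjusted p = 0.0128), with 0.0533 without Irradiation 1 and 0.0508 without Irradiation+Ly 2. Clec10a differed by -0.47 ± 0.14 (adjusted p = 0.0252) and passed in 2 of 8 cases, without Irradiation 2 or without Irradiation+Su 2; its adjusted p was 0.0945 without Irradiation 1. With normexp none of these 3 calls passed, at adjusted p of 0.0840 (Retnla), 0.0712 (Mrc1) and 0.0942 (Clec10a), where 0.773% of all tests of pooled drugs in irradiated lung passed. Chi3l3 differed by -0.45 ± 0.16 and was not called (0.0575), and Chi3l4 differed by -1.26 ± 0.39 (0.0292).

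Of 16 macrophage and monocyte markers, 1 was higher and 9 lower with Su in irradiated lung. Their median was -0.72, beside -0.57 for the 9 genes and 0.01 for all genes tested. Among those called lower, Marco differed by -1.26, C1qc by -1.18, C1qa by -1.11 and Cd68 by -0.89. Cx3cr1 was the 1 called higher (1.22). Not called were Ccr2 (0.29), Csf1r (0.29), Lyz2 (0.19), Itgam (0.11), Siglecf (0.065) and Mertk (-0.19). The mean level of that list was 1.17 to 1.44 on the 4 irradiated arrays with Su and 1.25 to 2 on the 4 with neither Su nor Imatinib. Epithelium had 0 higher and 3 of 10 lower: Lamp3 (-0.45), Aqp5 (-0.39) and Epcam (-0.47). Dendritic cells (Ccr7, 1.004), eosinophils (Ccr3, 1.02) and adipose tissue (Plin1, 0.93) had 1 marker higher each and 0 lower. The part of these cell types in the result was not tested. Of 18 other alternative activation genes 7 were lower with Su in irradiated lung and 0 higher, among them Igf1 (-1.93 ± 0.38, adjusted p = 0.00371) and Msr1 (-1.39 ± 0.46, 0.0403). Of 17 signalling genes, Irf4 was higher (1.04 ± 0.22, adjusted p = 0.00531) and Il33 lower (-0.89 ± 0.20, 0.00746).

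Imatinib over both irradiated arms gave calls for Clec10a (-0.74 ± 0.14, adjusted p = 0.00555) and Mgl2 (-0.92 ± 0.27, 0.0379), both lower, 2 of 9, where 13.3% of all genes were called and 5.33% as lower. Clec10a passed without any of the 8 arrays in turn (highest adjusted p = 0.0232), and had an adjusted p of 0.0960 with normexp. Mgl2 passed in 2 of 8 cases, without Irradiation 2 or without Irradiation+Ly+Imatinib 2; its adjusted p was 0.113 without Irradiation 1 and at most 0.129 (without Irradiation+Ly+Imatinib 1), and 0.301 with normexp. Of the macrophage and monocyte markers 1 of 16 was higher and 1 lower. Pooled Ly in irradiated lung gave 0 of 9 calls by limma, where 3.56% of all genes were called; 1 of the 9 (Clec10a, -0.41 ± 0.11, adjusted p = 0.0632) had an unadjusted p under 0.05.

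The difference between the pooled drug effect in irradiated and in unirradiated lung was tested for each gene, a comparison added after these values were seen. For Retnla the Su effect was -2.27 in irradiated and 0.93 in unirradiated lung, and the difference between them was -3.19 ± 0.89 (adjusted p = 0.0381), 1 of 9 genes called, where 11.2% of all genes were called and 5.93% as lower. Leaving out an array ended the call in 14 of 16 cases (highest adjusted p = 0.0876, without Irradiation+Ly+Su 1), with sizes of -3.67 to -2.72, and the adjusted p was 0.0940 with normexp. Clec10a (-0.64 ± 0.20, adjusted p = 0.0505), Arg1 (-0.92 ± 0.33, 0.0773) and Chi3l3 (0.62 ± 0.23, 0.0863) were not called. For Ly and Imatinib limma called 0 of 9 genes, where 0.0391% and 1.1% of all genes were called; 1 and 3 of the 9 had an unadjusted p under 0.05.

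**Figure D4:**
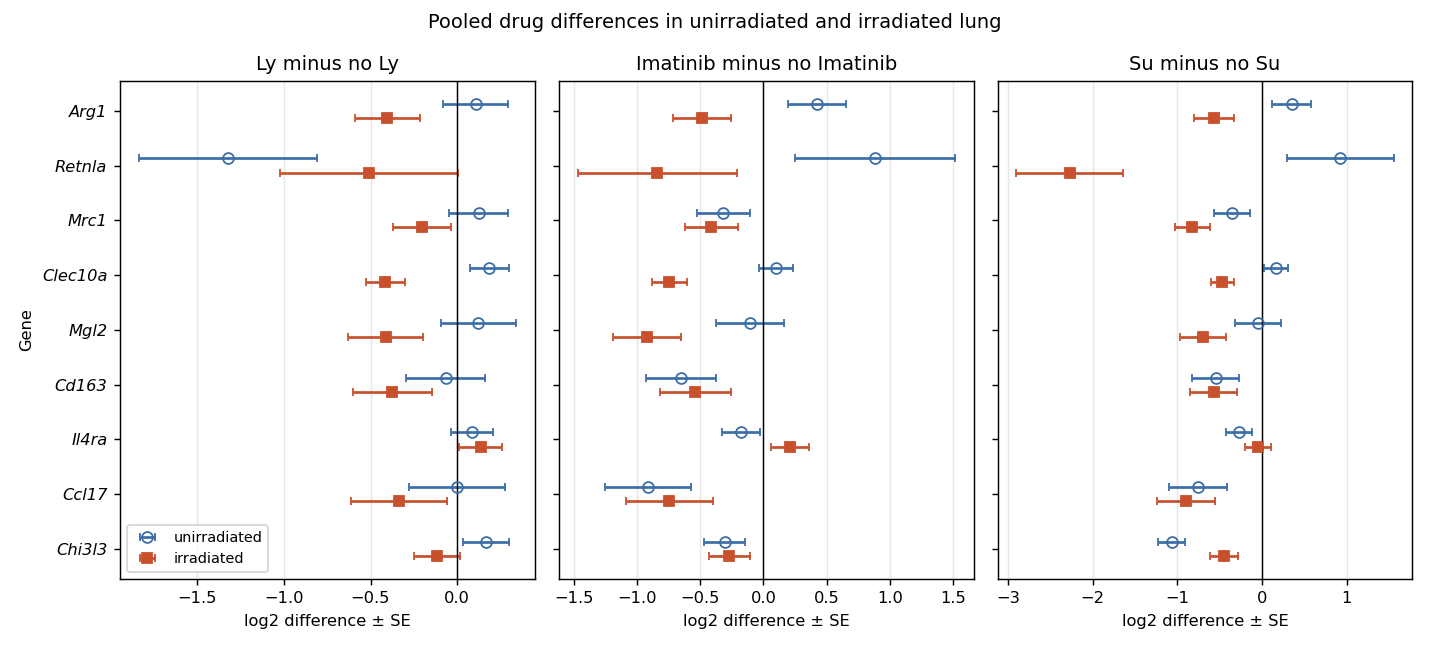
Pooled drug differences in log2 level with their SE for the 9 genes, with unirradiated and irradiated lung as separate points and 1 panel per drug. With Su, Retnla lies at 0.93 in unirradiated and -2.27 in irradiated lung and Chi3l3 at -1.07 and -0.45; with Imatinib, Clec10a lies at 0.10 and -0.74.

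The 9 genes did not vary as 1 block. Over the 24 arrays, Pearson's r was 0.740 between Arg1 and Clec10a, 0.726 between Clec10a and Mgl2, 0.688 between Ccl17 and Cd163, 0.647 between Mrc1 and Retnla and 0.601 between Chi3l3 and Mrc1. Il4ra had r of -0.602 with Arg1 and -0.524 with Clec10a. These values describe arrays that share 12 groups and 6 slides, with Irradiation 1 among them. Group means spanned 0.62 for Il4ra, the narrowest range of the 9, and 3.73 for Retnla, the widest. Irradiation had the highest group mean for Arg1, Retnla, Mrc1, Clec10a, Mgl2 and Chi3l3, untreated that of Cd163, and Ly those of Il4ra and Ccl17. For Chi3l3 the next group, Ly, had a mean of 7.03, within the spread of its own arrays (6.81 and 7.25) of that of Irradiation (7.01 and 7.20).

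The genes most like each one were sought among 13236 genes above background on 24 arrays, by Pearson's r over these arrays. Mrc1 was most like Atp6v0d2, a subunit of the proton pump of lysosomes (r = 0.980), Siglec1, a sialic acid receptor of macrophages (0.967), and Sh3pxd2b (0.958), the highest values for any of the 9. Chi3l3 was most like Septin9 (0.888), Chi3l4 (0.876) and the haem oxygenase Hmox1 (0.867). Retnla was most like Fxyd4 (0.916), Lap3 and Mfsd13a, Arg1 most like Malt1 (0.831), Cma1, a mast cell protease, and Htatip2, and Clec10a most like Tnni2 (0.847) and Rgs1. Mgl2 was most like Kif5c (0.852), Tmem86a and Asgr2, and Cd163 most like Bmf (0.802), Plac9a and Dhdds. Il4ra was most like Sema6b (0.877), Sbno2 and Flot1, and Ccl17 most like Lgi4 (0.867), Farp2 and Ttc39c.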

How the data were processed

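RNA of mouse lung was measured on 24 Agilent arrays. The authors' scanner files hold intensity values from Agilent Feature Extraction (version 9.1.3.1, per the file headers), background-subtracted and not scaled between arrays. After a constant per array, the authors' series table gave the deposited intensity again (ratios of 0.995 to 1.005). Arrays give no counts, so that their number limits the precision; 62.0 to 78.5% of spots were above background. Spots of 1 probe were averaged, 619 of 41174 probes with outlier spots were dropped, the probe with the highest mean stood for a gene, and the log2 of the 75th percentile of each array was subtracted. A RefSeq table named 22550 probes by accession, 6572 by symbol and 3068 by synonym; 8365 kept the name in the file. A gene was tested when well above background on both arrays of at least 1 group.

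Limma 3.58.1 (R 4.3.3) was fitted with 1 mean per group, 12 residual degrees of freedom and 2.07 from the shared variance; p-values are two-sided, with Benjamini-Hochberg adjustment over all genes and a threshold of 0.05. The code was tested on simulated data. For the second Irradiation+Su sample the number in the title was used, which its source name does not share. Alternatives were quantile normalization, normexp with an offset of 50, other filters, the mean over probes, the series table, slide and replicate blocks, fits on the groups compared and leaving out each array. All 9 genes were examined in every comparison. Of the lists, up to 4 called genes by size of difference are given, plus Stat6, Il13ra1, Arg2, Nos2, Chi3l4 and Ccl22. Some list genes that were not called or went the other way are named beside them. The genes most like each one are the leading 3 by correlation, of which 1 is not reported here. The genes and lists were chosen with earlier results of these data known.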

Additional observations from a re-analysis of the deposited data

Results flagged for a closer look

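Clec10a and Retnla were called by a test of the difference between groups itself. For Clec10a this was the interaction over the 6 arms (adjusted p = 0.0336, limma), where 1.07% of all genes were called. For Retnla it was the Su effect of irradiated minus unirradiated lung (-3.20 on the log2 scale), whose share over all genes is given above. The latter comparison was added after the values were seen. Leaving out an array ended each call in most cases, and neither passed with normexp. For 3 genes the irradiation difference ran in opposite directions in a pair of arms, with no overlap of arrays in either arm; these differences between arms were not tested, and 37.1% of all genes tested had such a pair of arms. For Retnla, the difference with Su was below that without drug by 4.16, below that with Ly by 2.98 and below that with Ly+Imatinib by 3.28 (log2). For Clec10a, the difference with Imatinib was below that without drug by 1.66, below that with Ly by 0.33 and below that with Su by 0.75. For Mgl2, the difference with Ly+Su was below that without drug by 1.39.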

How the results depend on the processing

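Of 31 called results on the 9 genes, 7 passed with every array left out in turn, and 0 changed direction. Those 7 were Mrc1 averaged over the arms, Clec10a in Irradiation against untreated, in 3 irradiated drug groups against Irradiation (Imatinib, Ly+Imatinib, Ly+Su) and in pooled Imatinib of irradiated lung, and Chi3l3 in pooled Su of unirradiated lung. With an array left out, the number of called genes ranged from 1 to 5 in the averaged difference (28 to 41.5% of all genes called), 1 to 5 in Irradiation against untreated (0.797 to 42.2%), 0 to 2 within the drug arms (1.63 to 4.71%), 3 to 24 in irradiated drugs against Irradiation (5.05 to 44.3%) and 0 to 1 for drugs alone (0.546 to 1.48%). It ranged from 1 to 11 in pooled drugs of irradiated lung (8.86 to 32.4%), 1 to 2 in unirradiated lung (1.87 to 3.52%), 0 to 6 for irradiated minus unirradiated (1.26 to 19.9%), 0 to 1 in the interaction (0.464 to 26.6%), and stayed at 0 for combinations (1.46 to 3.64%). The 31 called results do not include the interaction call of Clec10a. Where a group was left with 1 array, that array was assumed to vary like the other groups.

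With normexp, which called 7.79% of all genes in the averaged difference (32.9% as reported), the counts were 1 there (2 as reported), 3 in Irradiation against untreated (5; all genes 7.31%, 14.1% as reported), 3 in the drug arms (1; 9.22%, 4.12% as reported) and 3 in irradiated drugs against Irradiation (15; 1.71%, 17.8% as reported). It gave 0 for drugs alone (1; 0.00391% of all genes), for pooled drugs of irradiated (5; 0.773%) and of unirradiated lung (1; 0.0587%), for irradiated minus unirradiated (1; 0.0196%) and for the interaction (1; 0.00489%). Arg1 turned to -0.26 in Irradiation against untreated with normexp; its intensity ran from 35.9 to 532, beside the added offset of 50, and the cause was not tested. With only the compared groups in the fit, which leaves fewer samples, 0 of all 20453 genes were called in Irradiation against untreated, in irradiated drugs and in drugs alone, so that the 0 of 9 there says nothing of these genes; 4 were called in the drug arms (6.35% of all genes), 1 in pooled drugs of irradiated (3.26%) and 2 of unirradiated lung (2.58%). Quantile normalization gave 0 for irradiated minus unirradiated (1.91% of all genes) and for the interaction (0.601%). With no filter on background, 3 genes were called in Irradiation against untreated (6.74%) and 0 for irradiated minus unirradiated (1.84%). Genes above background on all 24 arrays gave 4 in the averaged difference (37.5%) and 2 for irradiated minus unirradiated (5.06%), and the series table gave 2 there (4.19%); the cause was not tested. Slide as a random block (correlation 0.142) could be fitted for the averaged difference with additive terms alone, an alternative chosen after seeing the data, and called 1 of the 9 genes and 3375 of 20453 in all, beside 6722.

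The replicate numbers did not pair the samples: over 66 pairs of groups the correlation of deviations had a median of 0.035 and ranged from -0.20 to 0.25, with 21 over 0.1. With the replicate block 5 of 9 genes were called in Irradiation against untreated, and no call of the named results changed; over all genes, 3339 were called beside 2888.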
